A study of Mus musculus with 8 samples.

Results

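The genes described are 10 transcription factor genes of the T lineage, Gata3, Tbx21, Eomes, Bcl11b, Runx3, Lef1, Satb1, Tox, Id2 and Id3, out of 18193 genes that had a probe set with 1 gene symbol. They were chosen by name. A gene with several probe sets is represented by the one with the highest mean over the 8 arrays. RNA of spleen cells from male C57/BL6 mice was hybridised to 8 Affymetrix mouse arrays. Each array, a biologic replicate by its label, is treated below as 1 mouse. TG mice had an HMGA1a transgene, which encodes a chromatin protein that binds AT-rich DNA, and WT mice were their wild-type littermates. Spleens were taken at 2 or at 12 months of age. Each of the 4 groups held 2 mice, numbered replicate 1 and replicate 2. The series' design text says that all TG mice go on to lymphoid tumours, that the younger age precedes them and that they are established at the older one. The promoter that drives the transgene and the number of founder lines are not given in the sources used here, and whole spleen cell suspensions were measured rather than sorted T cells.

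As background, a T cell precursor is committed to its lineage by Gata3, a zinc finger factor, and Bcl11b, a repressor that shuts off other fates. Lef1 and Satb1, an HMG-box factor and a genome organiser, are characteristic of developing and resting T cells. After activation, the T-box factors T-bet (encoded by Tbx21) and Eomes direct cytotoxic and interferon-producing programmes in CD8 T cells and NK cells, together with Runx3. Tox is needed for CD4 lineage development in the thymus and marks chronically stimulated CD8 T cells. Id2 and Id3 have no DNA-binding region of their own and hold E proteins, which bind the E-box motif, in inactive pairs. None of these genes is limited to T cells, since NK cells, innate lymphoid cells, dendritic cells or B cells express some of them.

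All 10 genes passed the filter on dim probe sets, which kept probe sets with a mean log2(signal + 16) at or above the median of the array, together with 11189 genes in all. Gata3 lay just inside that limit, at a mean of 5.938 against 5.937, so its values stand close to the range of dim probe sets. The groups were compared with limma on log2(signal + 16), with p-values adjusted over all 11189 genes, and differences are given on this log2 scale ± SE. None of the 10 genes passed the test in any of the 5 comparisons made (limma, adjusted p under 0.05). The verbs below are therefore those of measured differences that missed the test. With n = 2 the number of arrays limits every value, and nothing in the labels beyond the words biologic replicate says how the samples of a group were obtained, so p-values measure the spread between these samples.

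Several facts of the whole series touch these values. Replicate numbers mark a difference that the groups share, and the labels do not give its source. The replicate 1 minus replicate 2 differences of all genes correlated between every pair of groups (r = 0.464 to 0.654 across genes, which are not independent). Values within each replicate number are therefore given beside group differences below. The replicate 1 WT mouse of 2 months had a summed signal of 8079 for 4 exocrine pancreas markers, against 442 to 648 on the other 7 arrays. As for RNA quality at 12 months, the Gapdh control's 3' over 5' ratio was 0.843 and 1.21 in the TG mice of replicate 1 and 2, and 1.25 and 1.73 in the WT mice, so it was the lower one for TG with either number. Its part in the differences below was not tested. T cell markers of the replicate 1 TG mouse of 12 months stood apart, with a summed signal of 12443 over 14 genes against 5285 to 8835 on the other 7 arrays. Among the 6 markers of immature thymocytes fixed for the work, Rag1, Rag2, Dntt and Ptcra were all below the filter, 1 had no probe set used here, and only Cd1d1, which B cells and myeloid cells also express, was measured.

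**Figure D1:**
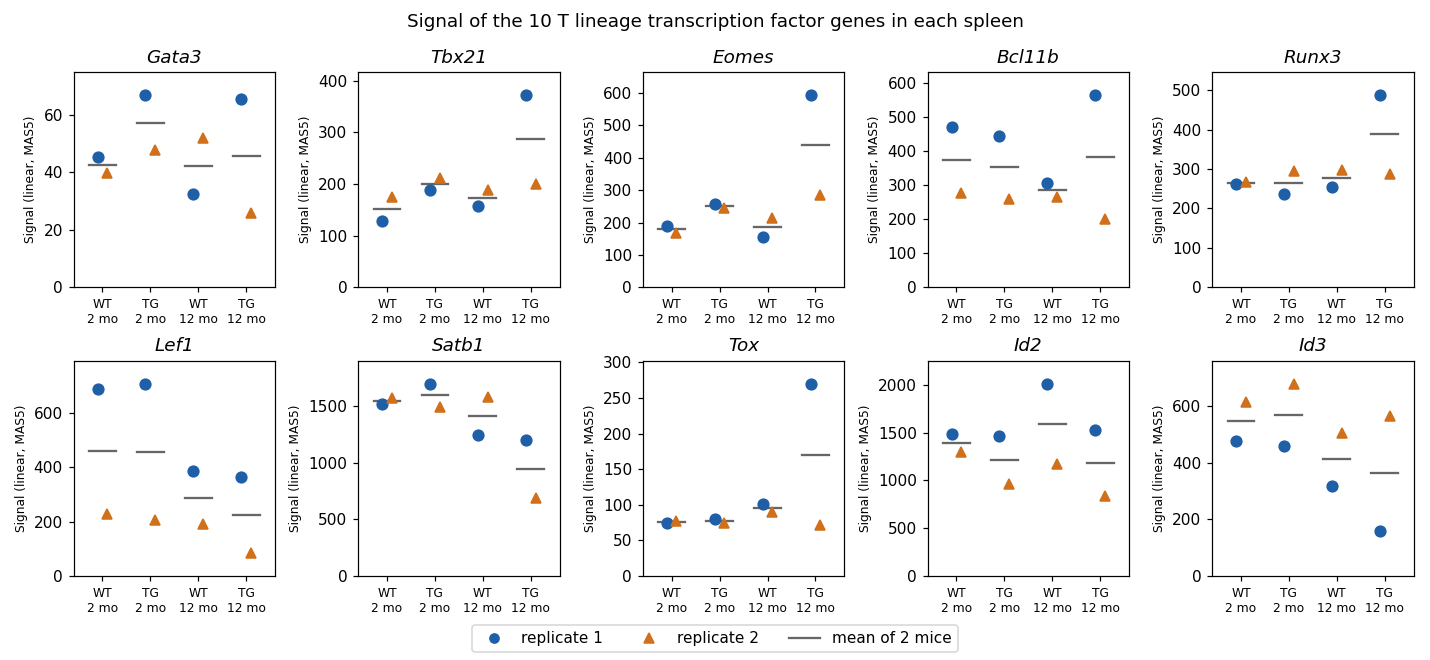
Signal of each gene (linear scale, MAS5) in the 8 spleens, 1 panel per gene with its own axis from 0, circles for replicate 1, triangles for replicate 2 and a grey line at the mean of the 2 mice. Both TG values of Eomes lie above both WT values at each age, whereas Bcl11b, Runx3 and Tox are high in the replicate 1 TG mouse of 12 months and not in its replicate 2 counterpart.

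The T-box factor genes Tbx21 and Eomes were the members for which both TG mice lay above both WT mice at both ages. Of all genes, 14.3% had this order at 12 months and 10.1% at 2 months. The share of all genes with it at both ages was not determined. Eomes had a signal of 594 and 284 in the replicate 1 and replicate 2 TG mice of 12 months and 156 and 214 in the WT mice. Both TG mice lay above both WT mice, and the replicate 1 TG mouse was the highest of all 8. The difference was 1.11 ± 0.32, which is 2.15-fold, and 1.83 and 0.38 within the replicates (limma adjusted p = 0.586, or 0.120 in a fit with the replicate number as a block). It was 0.59 without the replicate 1 TG mouse, 1.62 without the replicate 2 TG mouse and 0.90 and 1.32 without the replicate 1 and replicate 2 WT mouse. At 2 months, the age ahead of tumours, Eomes had 257 and 244 in TG and 190 and 168 in WT mice, again without overlap, a difference of 0.45 ± 0.32 (0.41 and 0.50 within the replicates, adjusted p = 1.00). The second Eomes probe set had the same order of groups. It was 1.28 higher in TG mice at 12 months (2.08 and 0.48 within the replicates) and 0.62 higher at 2 months (0.54 and 0.69), without overlap at either age.

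Tbx21, whose product T-bet drives interferon gamma production, had 372 and 201 in TG and 157 and 188 in WT mice at 12 months. Both TG values were above both WT values, but only the replicate 1 TG mouse was far from them, and the difference of 0.63 ± 0.30 was made of 1.16 and 0.09 within the replicates (adjusted p = 0.678). Without the replicate 1 TG mouse it was 0.20 and without the replicate 2 TG mouse 1.05. At 2 months the signals were 188 and 211 in TG and 127 and 175 in WT mice, with no overlap and a difference of 0.38 ± 0.30 (0.51 and 0.25 within the replicates). Only 1 probe set stands for Tbx21.

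Counts of non-overlapping groups have to be read against all genes. Of the 10 members, 2 (Tbx21 and Eomes) had both TG mice above both WT mice at 12 months, against 14.3% of all genes, and 1 (Satb1) had both below, against 19.9%. At 2 months 3 members lay above (Gata3, Tbx21 and Eomes), against 10.1% of all genes, and none below, against 7.83%. An adjusted p under 0.05 was reached by 0% of all genes in the comparison at 12 months and by 0% at 2 months. An unadjusted p under 0.05 was reached at 12 months by 1 member (Eomes, in the limma fit across all genes) and by 7.73% of all genes, and at 2 months by 0 members and by 0.393% of all genes. With the replicate block, 4 members (Eomes, Lef1, Satb1 and Id2) had an unadjusted p under 0.05 at 12 months, as did 2227 of all 11189 genes (limma). None of the 10 passed after adjustment (limma adjusted p from 0.120 for Eomes to 0.980 for Gata3). The median difference of the 10 members was 0.13 at 12 months, beside -0.03 over all genes, and 0.03 at 2 months, beside 0.01.

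Promoter sequence is shown for the 2 T-box genes because their groups did not overlap at both ages, and for Id2 because all 3 of its probe sets were lower in TG mice within both replicates at both ages (given below). The bases are the 250 upstream of the RefSeq transcription start on the strand of the gene, in build GRCm38.p6. Capitals mark E-boxes (CANNTG, the motif of the E proteins that Id factors hold inactive) and runs of 8 or more A or T letters. The windows lie at chr11:97115332-97115581 on the minus strand for Tbx21, chr9:118477939-118478188 on the plus strand for Eomes and chr12:25096093-25096342 on the minus strand for Id2.
Tbx21: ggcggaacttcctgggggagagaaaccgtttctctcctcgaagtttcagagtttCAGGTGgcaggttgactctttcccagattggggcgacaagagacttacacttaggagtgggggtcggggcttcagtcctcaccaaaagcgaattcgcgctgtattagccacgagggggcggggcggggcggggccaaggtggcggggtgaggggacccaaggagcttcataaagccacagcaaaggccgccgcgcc
Eomes: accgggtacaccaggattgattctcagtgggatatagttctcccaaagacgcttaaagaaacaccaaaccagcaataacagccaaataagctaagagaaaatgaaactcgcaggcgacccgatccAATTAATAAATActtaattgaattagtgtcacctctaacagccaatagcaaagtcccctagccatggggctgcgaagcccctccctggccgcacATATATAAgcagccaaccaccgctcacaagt
Id2: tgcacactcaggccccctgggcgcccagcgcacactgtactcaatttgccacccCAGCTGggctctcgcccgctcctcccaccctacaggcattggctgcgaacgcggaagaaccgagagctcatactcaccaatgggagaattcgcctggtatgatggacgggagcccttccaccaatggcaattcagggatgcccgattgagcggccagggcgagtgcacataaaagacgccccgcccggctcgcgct

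The Tbx21 and Id2 windows each held 1 E-box, and the Eomes window held none. An E-box occurs in 66.2% of 32536 such windows in the genome. Eomes alone of the 3 held runs of A or T letters, 2 of them, and 39.5% of all windows have at least 1. Neither the T-box half-site core AGGTGT (in 11.9% of all windows), nor AGATAA of GATA factors (9.97%), TGTGGT of RUNX factors (14%) or CTTTGA of TCF and LEF factors (13.9%) occurred in these 3 windows, read on both strands. These letters are a description of the windows, and no binding was measured.

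Runx3 and Tox, which accompany the T-box factors in activated CD8 T cells, differed between the TG mice of 12 months. Runx3, needed for the CD8 lineage and its cytotoxic programme, had 488 in the replicate 1 TG mouse. On the other 7 arrays it had between 236 and 297, including 287 in the replicate 2 TG mouse. Its difference at 12 months was 0.42 ± 0.26, from 0.89 and -0.05 within the replicates (adjusted p = 0.742). The other Runx3 probe set was below the filter. Tox had 270 in the replicate 1 TG mouse, 71.1 in the replicate 2 TG mouse and 102 and 89.7 in the WT mice, so that the TG mice lay on either side of the WT mice (0.50 ± 0.47, within the replicates 1.28 and -0.28, adjusted p = 0.871). Without the replicate 1 TG mouse the Tox difference was -0.36. In the younger mice the Runx3 difference was -0.14 and 0.13 within the replicates, and that of Tox 0.08 and -0.05.

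The commitment factors Bcl11b and Gata3 showed the same split. Bcl11b had 564 and 200 in TG and 305 and 264 in WT mice at 12 months, with the highest and the lowest value of all 8 arrays in the TG pair. The difference of 0.24 ± 0.47 was 0.86 within replicate 1 and -0.38 within replicate 2 (adjusted p = 0.947), and -0.47 without the replicate 1 TG mouse. Of its 4 probe sets, 3 had opposite signs in the replicates at 12 months and 1 was higher in both. Gata3 had 65.3 and 25.7 in TG and 32.3 and 52.0 in WT mice, a difference of 0.02 ± 0.36 (0.75 and -0.70, adjusted p = 0.997), and -0.46 without the replicate 1 TG mouse. At 2 months Gata3 had 66.9 and 47.6 in TG and 45.2 and 39.6 in WT mice (0.32 ± 0.36). Those 2 months values did not overlap, but all are close to the dimness limit of 45.3.

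**Figure D2:**
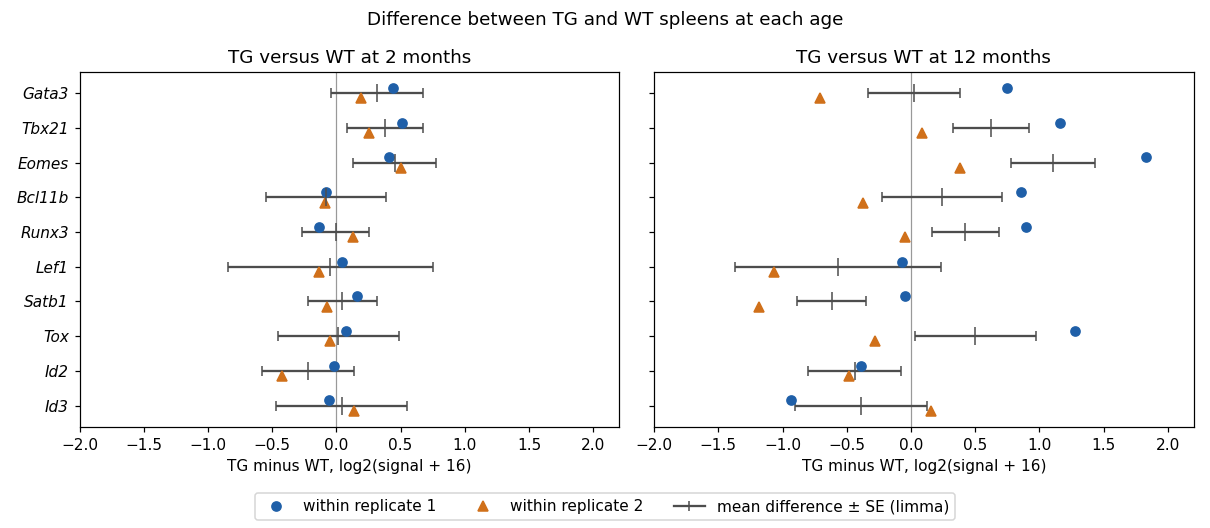
TG minus WT difference on the log2(signal + 16) scale for each gene at 2 months (left) and 12 months (right), with the limma estimate ± SE as a bar and the difference within replicate 1 (circle) and replicate 2 (triangle). At 12 months the replicates lie on opposite sides of 0 for Gata3, Bcl11b, Runx3, Tox and Id3, and for Id2 they are close together at -0.39 and -0.49.

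Lef1 and Satb1, the factors of resting T cells, had their lowest signals in the replicate 2 TG mouse of 12 months. Satb1 had 1205 and 687 in TG and 1247 and 1583 in WT mice. Both TG values were below both WT values, and the difference of -0.62 ± 0.27 was -0.05 within replicate 1 and -1.18 within replicate 2 (adjusted p = 0.645, or 0.203 in the blocked fit). All 5 Satb1 probe sets had lower TG means at 12 months, by -0.36 to -0.64, and 3 of them were lower within both replicates. Without the replicate 2 TG mouse the Satb1 difference was -0.22, and without the replicate 1 TG mouse -1.01.

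Lef1 was the member with the widest gap between replicate numbers. Replicate 1 exceeded replicate 2 by 0.95 to 1.94 on the log2 scale in the 4 groups, with 365 and 83.0 in TG and 384 and 191 in WT mice at 12 months. Its difference was -0.57 ± 0.80 (limma adjusted p = 0.925, or 0.209 in the blocked fit). It was -0.07 in the replicate 1 pair and -1.07 in the other. Without the replicate 2 TG mouse, where the lone TG array is of replicate 1, it was 0.40. The second Lef1 probe set differed by -0.33 at 12 months, made of 0.15 and -0.82 within the replicates. At 2 months Lef1 had 707 and 207 in TG and 687 and 229 in WT mice (-0.05 ± 0.80), and Satb1 1700 and 1494 in TG and 1519 and 1570 in WT mice (0.04 ± 0.27). Within a replicate number the genotypes were thus close for both genes at that age.

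Id2 was lower in TG mice by a like amount in each replicate pair at 12 months. The Id2 signals were 1528 and 836 in TG and 2011 and 1176 in WT mice. The groups overlapped because replicate 1 was higher throughout, but within each replicate number the TG mouse was lower, by -0.39 and -0.49 (-0.44 ± 0.36 on average, adjusted p = 0.842, or 0.198 in the blocked fit). With 1 array left out the Id2 difference carries the replicate gap: it was -0.0096 without the replicate 2 TG mouse, -0.056 without the replicate 1 WT mouse, -0.87 without the replicate 1 TG mouse and -0.82 without the replicate 2 WT mouse. All 3 Id2 probe sets were lower within both replicates, by -0.43 to -0.48 on average. At 2 months the signals were 1460 and 960 in TG and 1480 and 1294 in WT mice, a difference of -0.22 ± 0.36, made of -0.02 and -0.42. Again all 3 probe sets were lower within both replicates, by -0.21 to -0.33. NK cells and dendritic cells also express Id2. Of 8 dendritic cell markers measured, 8 had lower TG means at 12 months (0 passed the test), with a summed signal of 3066 and 3198 in TG and 4385 and 4991 in WT mice, and at 2 months 4 of 8 were lower. Of 9 macrophage and monocyte markers, 7 had lower TG means at 12 months, and 0 passed the test. All 7 were lower without overlap, against 19.9% of all genes. An unadjusted p under 0.05 (limma) was reached by 5, against 7.73% of all genes. The summed signals were 16317 and 21973 in TG and 24722 and 25290 in WT mice. Both lists were lower along with Id2 at 12 months, and their part in the result was not tested.

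Id3, the other inhibitor, is used by naive T cells and by B cells. It had 160 and 568 in TG and 320 and 507 in WT mice at 12 months. The replicate 1 TG mouse had the lowest value of the 8 arrays and the replicate 2 TG mouse lay above both WT mice, which gave a difference of -0.39 ± 0.51 from -0.93 and 0.16 (adjusted p = 0.918). Without the replicate 1 TG mouse it was 0.48. The summed signal of 11 B cell markers was lowest on the same array, at 14704 in the replicate 1 TG mouse against 21631 to 29671 on the other 7 arrays, and its part in the Id3 value was not tested. At 2 months Id3 had 460 and 680 in TG and 479 and 616 in WT mice (0.04 ± 0.51). As outside partners of the Id proteins, named for this role and not by the rule for list genes, the E protein genes Tcf3, Tcf12 and Tcf4 differed by 0.39 ± 0.28, -0.06 ± 0.37 and -0.23 ± 0.21 at 12 months, and none passed the test.

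**Figure D3:**
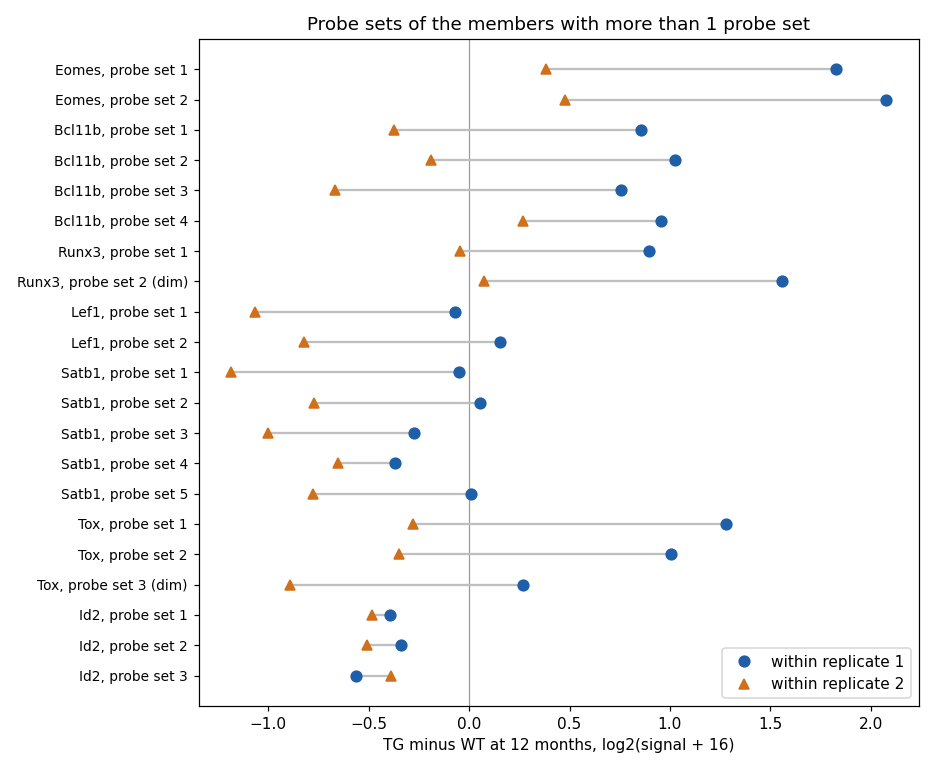
TG minus WT difference at 12 months on the log2(signal + 16) scale, for every probe set of the 7 members with more than 1, within replicate 1 (circle) and replicate 2 (triangle), probe sets numbered from the highest mean down and marked dim where they were below the filter. Both Eomes probe sets lie to the right of 0 and all 3 Id2 probe sets to the left in both replicates, and replicate 2 lies left of replicate 1 for all probe sets except the third of Id2.

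In the whole spleen, fewer T cells and less RNA per T cell cannot be told apart, and the members were therefore set beside T cell markers of the same arrays. At 12 months 12 of 14 T cell markers had higher TG means (0 passed the test). Their median difference was 0.67, which was 1.00 for the replicate 1 pair and -0.12 for the replicate 2 pair, beside a median of -0.03 over all genes. Cd3g, a chain of the T cell receptor complex, had 1578 and 537 in TG and 564 and 413 in WT mice, and Cd3e had 803 and 287 in TG and 390 and 430 in WT mice. The replicate 1 TG mouse was thus high in both. The replicate 2 TG mouse lay between the WT mice in Cd3g and below both in Cd3e. Cd3d had 1943 and 887 in TG and 619 and 1061 in WT mice. Cd247 had 360 and 212 in TG and 196 and 233 in WT mice. The coreceptor genes were chosen after the values were seen. Cd8a had 1261 and 440 in TG and 257 and 482 in WT mice, so in replicate 2 the TG mouse was lower. Cd8b1, the other CD8 chain, had 1180 and 475 in TG and 263 and 330 in WT mice, without overlap. Cd4 had 271 and 258 in TG and 336 and 345 in WT mice. At 2 months 13 of 14 T cell markers had higher TG means, their median being 0.25 (0.32 for the replicate 1 pair, 0.16 for the other).

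Against the mean log2 signal of the 14 T cell markers on the same array, a ratio also chosen after the values were seen and given without a test, the 12 months values of the replicates came closer for some members and moved apart for others. The TG minus WT difference of this ratio was -1.13 within replicate 1 and -1.06 within replicate 2 for Lef1, and -1.10 and -1.18 for Satb1. For Tbx21 it was 0.11 and 0.09, for Runx3 -0.16 and -0.04 and for Bcl11b -0.20 and -0.37. Eomes was higher by 0.77 and 0.39. Id2, alike in the replicates before, moved apart to -1.45 and -0.48, and Id3 lay at -1.99 and 0.16, Gata3 at -0.30 and -0.70 and Tox at 0.23 and -0.28. The median of all 11189 genes was -1.11 within replicate 1 and -0.02 within replicate 2 on this ratio, since the markers themselves differed by 1.06 and -0.00, and 0.724% of all genes were below -1 in both. In replicate 1 the Lef1 and Satb1 values were therefore close to that median, and in replicate 2 they were below it. Taken against each T cell marker alone, both genes were lower in both replicates for 13 of 14 markers, as were 4.53% of all genes for at least 13. Id2 was so for 12 markers (8.92% of all genes for at least 12) and Gata3 for 11 (21.5% for at least 11). Against single markers the Lef1 values ran from -2.30 to 0.22 in replicate 1 and from -1.69 to -0.42 in replicate 2. In the mice of 2 months the ratio to the mean of the markers differed by -0.24 and -0.30 for Lef1, -0.12 and -0.23 for Satb1 and 0.13 and 0.34 for Eomes.

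**Figure D4:**
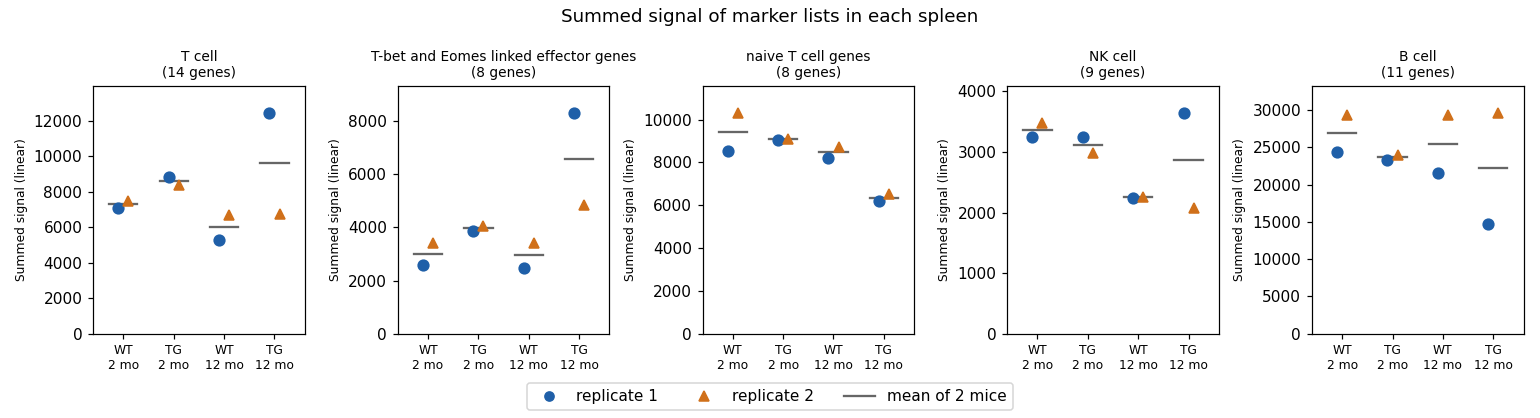
Summed linear signal of 5 gene lists in each spleen, with circles for replicate 1, triangles for replicate 2 and a grey line at the mean of the 2 mice. T cell markers reach 12443 in the replicate 1 TG mouse of 12 months, and the naive T cell sums of 6180 and 6508 in the TG mice of that age are low through 1 gene, Igfbp4, without which the genotypes overlap.

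Genes linked to the T-box factors were measured as a list of 10, of which 8 passed the filter and Ifng and Il12rb2 were too dim. At 12 months 7 of 8 had higher TG means, the median being 0.57 (1.03 in the replicate 1 pair, 0.14 in the other). Both TG mice lay above both WT mice for 5, against 14.3% of all genes, and below for 1, against 19.9%. That 1 was Klrg1, with 71.0 and 82.0 in TG and 94.8 and 123 in WT mice. The test was passed by 0, and 2 had an unadjusted p under 0.05 (limma), against 7.73% of all genes. The summed signal was 8326 and 4831 in TG and 2486 and 3411 in WT mice, without overlap. The chemokine receptor gene Cxcr3 had 1379 and 540 in TG and 441 and 450 in WT mice (0.93 ± 0.37), and the chemokine gene Ccl5 had 5303 and 3455 in TG and 1215 and 2176 in WT mice (1.39 ± 0.34). Il2rb, a receptor chain for interleukins that sustain memory CD8 and NK cells, had 661 and 420 in TG and 412 and 334 in WT mice (0.49 ± 0.24). Fasl, a death ligand gene, had 125 and 69.0 in TG and 75.4 and 75.9 in WT mice. At 2 months the list had a median of 0.20, with 4 of 8 genes higher, and Cxcr3 had 537 and 506 in TG and 329 and 346 in WT mice while Il2rb had 558 and 485 in TG and 336 and 295 in WT mice. Both TG mice lay above both WT mice at 2 months for 4 of the 8 genes (Cxcr3, Il2rb, Ccl5 and Gzmk), against 10.1% of all genes. They lay below for 1 (Fasl), against 7.83%. Like Eomes, the 4 higher genes had no overlap between the genotypes at either age. The share of all genes of which this holds was not determined. Klrg1 and Gzmk are named after their values were seen. The Gzmk signals of the WT mice of 2 months, 38.8 and 44.4, were below the dimness limit of 45.3.

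NK cells also use Tbx21, Eomes and Id2, so NK markers were read beside them. Of 9 measured, 5 had higher and 4 lower TG means at 12 months, and 0 passed the test. An unadjusted p under 0.05 (limma) was reached by 1 higher and 3 lower markers, against 7.73% of all genes. The median of the 9 was 0.07 (0.36 in the replicate 1 pair, -0.22 in the other). The median hides opposed differences, named here after their values were seen. The receptor gene Klra8 had 1.74 and 29.2 in TG and 172 and 139 in WT mice. Gzma had 42.5 and 89.6 in TG and 338 and 337 in WT mice. Both Klra8 values and the lower Gzma value of the TG mice were below the dimness limit of 45.3. In the other direction, the granule gene Nkg7 had 1746 and 779 in TG and 422 and 547 in WT mice. The receptor gene Ncr1, which is the marker most limited to NK cells in this list, had 24.4 and 28.9 in TG and 50.3 and 53.4 in WT mice, and at 2 months 53.3 and 65.6 in TG and 79.2 and 89.4 in WT mice. It was thus lower in TG mice at both ages, without overlap, and all of its 12 months TG values are below the dimness limit. Klrk1 had 315 and 159 in TG and 242 and 242 in WT mice, Klrd1 803 and 289 in TG and 464 and 338 in WT mice, and Klre1 136 and 83.5 in TG and 98.1 and 85.8 in WT mice at 12 months. The summed NK signal was 3649 and 2072 in TG and 2244 and 2261 in WT mice. At 2 months 3 of the 9 NK markers had higher and 6 lower TG means, the median being -0.05. Without overlap 1 was higher and 4 were lower, against 10.1% and 7.83% of all genes. The part of NK cells in the Tbx21, Eomes and Id2 values was not tested.

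Naive T cell genes, which are the usual company of Lef1 and Satb1, were counted over 10 genes with 8 measured. At 12 months 4 had higher and 4 lower TG means, and 0 passed the test. An unadjusted p under 0.05 (limma) was reached by 3 lower ones, against 7.73% of all genes. The median of the 8 was -0.15 (-0.10 in the replicate 1 pair, -0.32 in the other). Their summed signal was 6180 and 6508 in TG and 8191 and 8743 in WT mice, but that gap lay in 1 bright gene, Igfbp4 (named after its values were seen), with 1500 and 2634 in TG and 4116 and 3957 in WT mice. Without Igfbp4 the sums were 4680 and 3874 in TG and 4075 and 4786 in WT mice, which overlap, as do the mean log2 signals of all 8 genes (9.06 and 8.71 in TG, 9.03 and 9.21 in WT mice). The largest log2 difference of the 8 was that of the dimmer Dapl1, also named after its values were seen. It had 78.1 and 20.4 in TG and 141 and 148 in WT mice (-1.46 ± 0.45). The lower of the TG values was below the dimness limit of 45.3. Both TG mice lay below both WT mice for 3 of the 8, against 19.9% of all genes, and above for 0, against 14.3%. The lymph node homing receptor gene Ccr7 had 412 and 386 in TG and 540 and 630 in WT mice (-0.53 ± 0.17), and Klf2, a factor of resting lymphocytes, had 1296 and 1817 in TG and 1776 and 2387 in WT mice (-0.42 ± 0.27). In the other direction the interleukin receptor gene Il7r had 1820 and 687 in TG and 896 and 663 in WT mice, and S1pr1, an egress receptor gene, had 545 and 659 in TG and 479 and 623 in WT mice. At 2 months the median was -0.03. B cells and dendritic cells express some of these genes too.

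Of 25 other regulators of T lineage cells, 22 were measured. Their TG means at 12 months were higher for 11 and lower for 11, the median being 0.01 (-0.06 in the replicate 1 pair, -0.13 in the other), and 0 passed the test. Ikzf1, a lymphoid zinc finger factor, had 2020 and 1995 in TG and 1912 and 1965 in WT mice, and its relative Ikzf3 had 1417 and 875 in TG and 981 and 669 in WT mice. Runx1 had 147 and 106 in TG and 67.9 and 159 in WT mice, and Zbtb7b, the CD4 lineage factor, 203 and 456 in TG and 249 and 306 in WT mice. The 2 with an unadjusted p under 0.05 (limma), against 7.73% of all genes, are named after their values were seen. Nfatc1 had 935 and 1864 in TG and 733 and 716 in WT mice (0.85 ± 0.29). Zbtb16, the factor of innate-like T cells, had 36.0 and 26.4 in TG and 81.9 and 69.5 in WT mice (-0.96 ± 0.27). Both Zbtb16 values of the TG mice were below the dimness limit of 45.3. At 2 months 9 of the 22 regulators were higher and 13 lower, with a median of -0.02.

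The effect of the transgene was compared between the ages by its difference, 12 minus 2 months. No member passed the test and none had an unadjusted p under 0.05, against 0% and 1.9% of all genes (limma, adjusted p = 1.00 for all 10). The difference was 0.65 ± 0.46 for Eomes and -0.66 ± 0.38 for Satb1, the extremes of the 10. For Eomes it was 1.42 within replicate 1 and -0.12 within replicate 2, so the effect was larger at 12 months in the replicate 1 mice and not in the replicate 2 mice. The comparisons of genotype and of age share arrays, so they are not independent of each other.

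Age was then compared within each genotype. In WT mice 0 of 10 members passed the test or had an unadjusted p under 0.05, against 0% and 1.53% of all genes. In the blocked fit 1 member, Lef1, had an unadjusted p under 0.05, as did 578 of all 11189 genes, and no member passed after adjustment. Differences between 12 and 2 months ranged from -0.53 ± 0.80 for Lef1 to 0.27 ± 0.47 for Tox. Tox was the only member whose WT groups did not overlap, with 102 and 89.7 at 12 and 74.9 and 77.7 at 2 months, against 12.7% of all genes higher and 10.9% lower at 12 months without overlap. All 3 Tox probe sets were higher at 12 months within both replicates. Lef1 was lower at 12 months in WT mice within both replicates (-0.81 and -0.24).

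In TG mice 0 of 10 members passed the test, against 0.00894% of all genes, which is 1 gene, the granzyme gene Gzma (named after its value was seen). An unadjusted p under 0.05 was reached by Satb1 alone (in the limma fit across all genes), against 4.72% of all genes. With the block it was reached by 4 members (Eomes, Lef1, Satb1 and Id3), against 1497 of all 11189 genes. None of these 4 passed after adjustment. Satb1 was lower at 12 than at 2 months in TG mice by -0.80 ± 0.27 (-0.49 and -1.10 within the replicates), without overlap, and 17.4% of all genes were lower in this way. Eomes was higher by 0.68 ± 0.32 (1.16 and 0.21), without overlap, and 10.3% of all genes were higher in this way, but its second probe set was 0.98 and -0.30 within the replicates. Lef1 was lower by -1.05 ± 0.80, and close in both replicates at -0.92 and -1.17, with an adjusted p of 0.141 in the blocked fit. Id3 was lower by -0.85 ± 0.51 (-1.44 and -0.25), and the range over the 10 members ran from Lef1 to Tox (0.76 ± 0.47, 1.58 and -0.06).

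In order of group means, Eomes ran from 179 ± 15.4 in WT mice of 2 months and 185 ± 41.2 in WT mice of 12 months to 251 ± 9.18 in TG mice of 2 months and 439 ± 219 in TG mice of 12 months (SD, n = 2). The WT groups did not differ beyond their spread. Tbx21 had the order 151 ± 33.8, 173 ± 21.3, 200 ± 16.7 and 286 ± 121 over the same groups. The WT groups overlapped each other, while at each age both TG mice lay above both WT mice. Satb1 had 1545 ± 35.7 and 1597 ± 146 in WT and TG mice of 2 months, 1415 ± 237 in WT mice of 12 months and 946 ± 366 in TG mice of 12 months, and its first 3 groups overlapped.

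The genes whose pattern was most like each member were taken by Pearson r over the 8 arrays, after the mean of each replicate number was subtracted, among all genes past the filter. They were Cst7 (r = 0.993) and Cldnd1 (0.986) for Tbx21, Pno1 (0.992) and Mcmbp (0.991) for Eomes, Shmt2 (0.990) and Gna13 (0.984) for Runx3, and Basp1 (0.997) and Sdf2l1 (0.994) for Tox. They were Ms4a4b (0.986) and Ctnnb1 (0.980) for Bcl11b, and Pde2a (0.974) and Apeh (0.963) for Gata3. Lef1 was nearest to Rp9 (0.996) and Als2cl (0.989), Satb1 to Wipf2 (0.979) and Psmd13 (0.973), Id2 to Gusb (0.968) and Lyst (0.958), and Id3 to Fem1c (0.996) and Fbxo25 (0.986). These are the highest of 11189 values each, over arrays that share the replicate 1 TG mouse of 12 months, and are a description only. Without subtracting the replicate means, r was under 0.5 for 5 of these pairs, at 0.082 for Lef1 with Rp9, 0.465 for Lef1 with Als2cl, 0.407 for Satb1 with Wipf2, 0.395 for Id3 with Fem1c and 0.130 for Id3 with Fbxo25.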

How the data were processed

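Spleen cell RNA was measured on 8 Affymetrix mouse arrays (4 groups of 2, each array treated as 1 mouse). Per the submitters' processing notes the authors used GCOS 1.4 and MAS5. The deposited values are intensities per probe set on a linear scale, and the 2% trimmed mean was 150.001 on every array, so each array was scaled by 1 factor. Among 45101 probe sets (64 of them controls), the platform annotation names 1 gene for 34945, several genes for 932 and no gene for 9160. Symbols were updated by gene identifier.

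From these, log2(signal + 16) was computed, probe sets under the median mean (a signal of 45.3) were dropped, and the brightest probe set stood for each gene. One limma 3.58.1 model in R 4.3.3 (lmFit, eBayes with trend, 4 group means, 4 residual degrees of freedom, no block) was fitted to all 11189 genes, and 2-sided p-values were adjusted by Benjamini-Hochberg in each comparison. The fit was tested on simulated data. The members and lists were chosen with earlier results of these data known. Named list genes are taken from the first 4 measured in the written order, and others are marked as such where they are named. Replicate numbers were taken to pair the arrays, since all 6 correlations of replicate differences between groups exceeded 0.1. Promoters come from RefSeq (GRCm38.p6), which gave windows for 9 of the 10 genes. Alternatives were 2 other pseudocounts, 2 other filters, quantile normalization, averaging over all probe sets of a gene, the replicate block, and leaving out each array.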

Additional observations from a re-analysis of the deposited data

How the results depend on the processing

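No member passed the test (limma, adjusted p under 0.05) in any comparison under those of the 15 alternatives in which it was tested. Gata3 was below the filter with pseudocount 64, the stricter filter and quantile normalization, and Tox with the stricter filter, so they have no value there. With the replicate block, 5 genes passed at 12 months and 21 between the ages in TG mice, none of them a member, and the block changed no member's call. A pseudocount of 1 left 0 genes for age in TG mice. With an array left out, the count of genes ran from 0 to 7 at 12 months (7 without the replicate 2 TG mouse of 12 months), 0 to 2 at 2 months and 0 to 4 for age in WT mice (2 and 4 without the replicate 2 WT mouse of 2 months), and 0 to 4 for age in TG mice (4 and 2 without the replicate 2 and replicate 1 TG mouse of 12 months). It was 0 in all settings for the difference between ages. Of the 10 members, 6 had higher TG means at 12 months, 4 without the replicate 1 TG mouse and 7 without the replicate 2 TG mouse, both counts added after the data were seen. Besides left-out arrays, signs turned for Bcl11b with age in TG mice (0.0064 with pseudocount 64, 0.035 with the mean of its probe sets), and, with that mean, for Satb1 (-0.16) and Tox (-0.085) at 2 months and Eomes with age in WT mice (-0.14). Leaving out 1 array turned the sign of other log2 differences, and since a lone array then carries its replicate number's level, the ranges are wide. At 12 months they were -0.46 to 0.50 for Gata3, -0.47 to 0.95 for Bcl11b, -1.54 to 0.40 for Lef1, -0.36 to 1.36 for Tox and -1.25 to 0.48 for Id3. At 2 months they were -0.45 to 0.28 for Bcl11b, -0.15 to 0.15 for Runx3, -0.90 to 0.80 for Lef1, -0.047 to 0.14 for Satb1, -0.028 to 0.056 for Tox, -0.52 to 0.077 for Id2 and -0.23 to 0.32 for Id3. For the difference between ages they were -0.77 to 0.19 for Gata3, -0.17 to 0.67 for Tbx21, -0.39 to 1.04 for Bcl11b, -1.49 to 0.45 for Lef1, -0.37 to 1.34 for Tox, -0.65 to 0.21 for Id2 and -1.29 to 0.44 for Id3. For age in WT mice they were -0.27 to 0.22 for Gata3, -0.024 to 0.39 for Tbx21, -0.18 to 0.24 for Eomes, -0.69 to 0.032 for Bcl11b, -0.053 to 0.16 for Runx3, -1.29 to 0.24 for Lef1, -0.30 to 0.035 for Satb1 and -0.23 to 0.53 for Id2. For age in TG mice they were -0.80 to 0.16 for Gata3, -0.72 to 0.71 for Bcl11b, -0.10 to 1.62 for Tox, -0.50 to 0.36 for Id2 and -1.71 to 0.020 for Id3. The cause of the turned signs was not tested.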
